A study of Mus musculus with 2 samples.

Results

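The genes described here are the voltage-gated and potassium ion channel genes of the mouse vomeronasal organ (VNO), the chemosensory organ at the base of the nasal septum. They were taken by symbol from the gene list of a single-cell RNA-seq data set: every symbol that starts with Kcn, with Scn or Hcn followed by a digit, or with Cacn. This gave 143 of the 32285 listed genes, of which 138 are annotated as protein coding and 5 as antisense transcripts. They comprised 10 calcium channel alpha1 subunits, 16 calcium channel auxiliary subunits, 10 sodium channel alpha subunits, 4 sodium channel beta subunits, 4 HCN channels, the 5 antisense transcripts and *Kcnrg*, which encodes a regulator of potassium channels, and potassium channel subunits for the remainder. The study profiled whole VNO from 5 male wild-type C57 BL/6J mice at postnatal day 60, whose tissue was dissociated and cryopreserved before capture. The cells were loaded as 2 libraries, and how the 5 animals were divided between the libraries was not given in the sources used here. Every test therefore measures the spread between 2 captures, which may be technical.

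Channels of these families set the electrical behaviour of a cell. Sodium channel alpha subunits form the pore that carries the upstroke of the action potential, beta subunits change its gating and its place in the membrane, and potassium channels repolarise the membrane and hold it at rest. Calcium channel alpha1 subunits let calcium enter on depolarisation, and many of them, though not the T-type, rely on alpha2delta and beta subunits to reach the surface. HCN channels open on hyperpolarisation and pace repeated firing. Vomeronasal sensory neurons (VSNs) come in an apical type, which uses V1R receptors with the G protein Gnai2, and a basal type, which uses V2R receptors with Gnao1. Both signal through phospholipase C and the cation channel Trpc2, and calcium-activated potassium channels and G protein-gated inward rectifiers are among the channels studied in them. Tandem-pore channels give a resting potassium conductance, and supporting epithelium and vascular muscle each use their own potassium channels to set potential, potassium balance or tone.

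Library 1 held 12814 barcodes and 108005626 UMIs (unique molecular identifiers, each standing for 1 captured RNA molecule), and library 2 held 11270 barcodes and 95442231 UMIs. After removal of barcodes with few or very many genes or over 5% mitochondrial UMIs, 5694 and 4898 cells remained, with medians of 6668 and 6650 UMIs. 33 barcode sequences occurred in both libraries. Clusters were built without the 143 channel genes and named "-like" from fixed marker genes. 8516 cells fell into 22 named groups and 2076 cells into unnamed ones. The channel genes were read from the UMIs summed over the cells of a group in each library, as counts per 1000000 UMIs of the group and library (CPM), which are 3′ molecule counts and are not scaled for gene length.

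The 4 neuron groups carried their defining markers. *Omp*, the marker of mature olfactory and vomeronasal neurons, stood at 816 and 867 CPM in the 595 mature apical VSN-like cells and at 779 and 732 CPM in the 109 mature basal VSN-like cells, in libraries 1 and 2 in this order here and throughout. It was at 14.2 to 32.8 CPM in the 192 immature apical and 160 immature basal VSN-like cells. *Gap43*, the marker of growing axons, was at 1016 to 1387 CPM in the immature groups and 118 to 214 CPM in the mature groups. *Gnai2* was at 3616 and 3785 CPM in mature apical cells against 108 and 41.6 CPM in mature basal cells. *Gnao1* was at 342 and 355 CPM in mature basal cells against 3.85 and 7.05 CPM in mature apical cells. Median depth differed between groups, from 13511 UMIs per cell in mature apical and 17162 in mature basal cells to 8926.5 in immature apical and 8649 in immature basal cells, and reached a low of 1760 in the mural-like cells.

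A channel gene was called detected in a group when it reached 5 CPM in each library and 10 UMIs over both. By this measure 86 of the 143 genes were detected in at least 1 of the 22 groups, 45 had UMIs but were detected in no group, and 12 had no UMI in any named group. The 12 genes without UMIs were *Cacna2d4*, *Cacng3*, *Cacng6*, *Kcna10*, *Kcnh5*, *Kcnj1*, *Kcnj4*, *Kcnk16*, *Kcnk18*, *Kcnk9*, *Kcnmb4os1* and *Kcnv2*. Among genes studied in VSNs, *Kcnj6*, a G protein-gated inward rectifier, had 8 UMIs in all, and *Kcnj9* of the same class was not detected in any group. 15 of the 45 genes had under 10 UMIs, so that a low level in a small group was not detectable at this depth.

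More of these genes were detected in the neurons than in any other group. 48 genes were detected in mature apical and 44 in mature basal VSN-like cells, against 36 in immature apical and 33 in immature basal cells, 18 in precursor-like and 13 in ensheathing-like cells, 11 in basal epithelial-like, 10 in sustentacular-like and 10 in non-sensory epithelial-like cells, 8 in mural-like and 7 in endothelial-like cells. Fibroblast-like cells had 17. Over all genes the same limits gave 9478 in mature apical, 8784 in mature basal, 8948 in immature apical and 8471 in immature basal cells, 9446 in fibroblast-like, 9303 in endothelial-like and 9164 in sustentacular-like cells, and 6202 in precursor-like, 6097 in ensheathing-like and 4569 in mural-like cells. Of the 86 detected genes, 58 were detected in a neuron group, 34 in neuron or precursor-like groups and in no other, and 28 in neither neurons nor precursor-like cells. The summed level of all 143 genes was 2483 and 2778 CPM in mature apical and 2298 and 2413 CPM in mature basal cells. It was 1569 to 2175 CPM in the immature groups, 811 and 894 CPM in sustentacular-like cells, 361 and 452 CPM in basal epithelial-like cells and 347 and 396 CPM in endothelial-like cells.

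**Figure D1:**
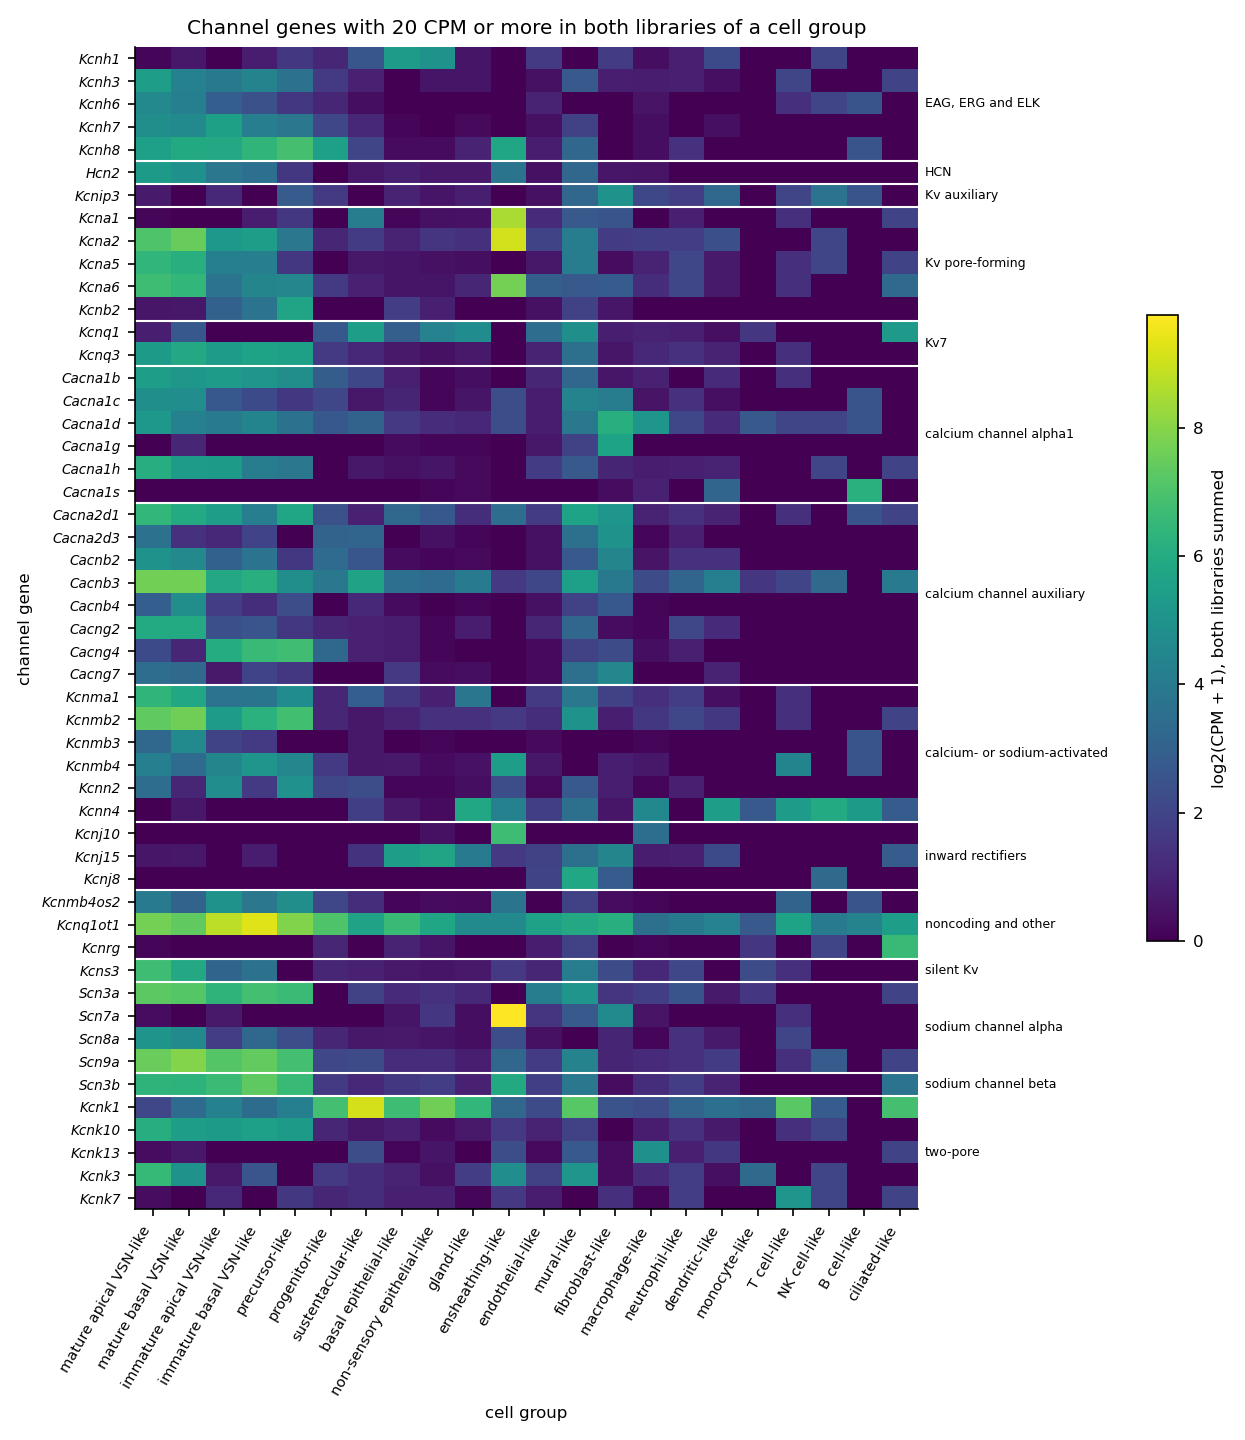
Levels of 51 channel genes that each reached 20 CPM in both libraries of at least 1 of 22 cell groups. Rows are genes ordered by family, columns are cell groups, and colour is log2(CPM + 1) with both libraries summed. The 4 VSN columns share most of their coloured rows, while *Kcnk1* is coloured in the epithelial, gland, ciliated, progenitor, mural and T cell columns, and *Scn7a*, *Kcna1* and *Kcna2* are at their highest in the ensheathing column.

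The mature types shared channel genes at about the rate of all genes. 42 channel genes were detected in both mature groups, which is 87.5% of the 48 genes of the apical cells and 95.5% of the 44 genes of the basal cells. Over all genes 8426 were detected in both, 88.9% of the apical and 95.9% of the basal set. *Cacna2d3*, *Kcng1*, *Kcnn2* and *Scn2a* were among the genes that passed the detection limit in apical cells without passing it in basal cells, and *Kcnk1* and *Kcnk12* did so in basal cells. 26 genes were detected in all 4 neuron groups.

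Among sodium channel alpha subunits, *Scn9a*, which encodes the Nav1.7 channel of olfactory and nociceptive neurons, was at 184 and 184 CPM in mature apical and 261 and 225 CPM in mature basal cells. *Scn3a* was at 146 and 168 CPM in apical and 132 and 155 CPM in basal cells. Both genes lie in a sodium channel cluster on mm10 chromosome 2, *Scn9a* at chr2:66480080-66634962 and *Scn3a* at chr2:65457118-65567627, each on the minus strand, with *Scn2a* between them at chr2:65620771-65767447 on the plus strand. *Scn8a*, the channel of axon initial segments and nodes, was at 29.3 and 35.5 CPM in apical and 23.1 and 24.7 CPM in basal cells. *Scn2a* was lower, at 8.35 and 7.93 CPM in apical cells and 2.10 and 10.1 CPM in basal cells. Of the beta subunits, *Scn3b* was at 78.3 and 80.8 CPM in apical and 75.4 and 78.7 CPM in basal cells. *Scn2b* and *Scn4b* had 30 and 19 UMIs over all named groups.

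Calcium channel subunits were represented by *Cacna1h*, a T-type channel, *Cacna1b*, the N-type channel of nerve terminals, and the L-type channels *Cacna1d* and *Cacna1c*. *Cacna1h* was at 61.2 and 74.3 CPM in mature apical and 43.0 and 37.1 CPM in mature basal cells. *Cacna1b* was at 44.1 and 43.2 CPM in apical and 36.7 and 33.7 CPM in basal cells. *Cacna1a*, the P/Q-type channel, reached 4.07 and 7.93 CPM in apical cells and 1.05 and 0 CPM in basal cells, below the detection limit in both. *Cacna1e* and *Cacna1g* were at or under 2.10 CPM in both mature groups, *Cacna1i* had 4 UMIs and *Cacna1f* 33 UMIs over all named groups. The beta subunit *Cacnb3* was at 191 and 226 CPM in apical and 200 and 211 CPM in basal cells.

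The potassium channels of mature VSNs were led by delayed rectifiers, calcium-activated channels and their partners. *Kcna2* was at 123 and 148 CPM in apical and 169 and 188 CPM in basal cells, and *Kcna6* at 103 and 107 CPM against 77.5 and 95.5 CPM. *Kcnma1*, the pore of the large-conductance calcium-activated channel, was at 81.3 and 83.7 CPM in apical and 49.2 and 65.2 CPM in basal cells. Its beta subunit *Kcnmb2*, which gives inactivation, was at 155 and 183 CPM in apical and 174 and 219 CPM in basal cells. The small-conductance channels *Kcnn1* and *Kcnn3* were detected in both mature groups, and *Kcnn4*, the intermediate-conductance channel, had 0 UMIs in apical cells. Of the ether-a-go-go group, *Kcnh2*, *Kcnh3*, *Kcnh4*, *Kcnh6*, *Kcnh7* and *Kcnh8* were detected in both mature groups, whereas *Kcnh1* was at or under 1.05 CPM. *Kcnq3* of the M-current family was at 35.1 and 43.8 CPM in apical and 55.5 and 61.8 CPM in basal cells. *Hcn2* was at 39.2 and 38.5 CPM in apical and 33.5 and 23.6 CPM in basal cells, *Hcn4* at 21.2 and 19.1 CPM against 24.1 and 16.9 CPM, and *Hcn3* at or under 1.76 CPM in both.

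The first comparison asked which channel genes separate mature apical from mature basal VSNs. Apical cells had more *Kcnk3*, *Kcnn2* and *Kcns3*, among others, and basal cells had more *Kcnk12*, *Cacnb4*, *Cacng5*, *Kcnmb3* and *Scn9a*. Of 62 channel genes tested, 4 were higher and 5 lower in apical cells (edgeR quasi-likelihood test, adjusted p under 0.05 over all 12722 genes tested). Over all genes 3.85% were called higher and 5.53% lower, 9.38% in either direction, against 14.5% of the channel genes. The median log2 fold change was 0.30 over the channel genes and 0.05 over all genes.

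*Kcnk3* encodes TASK-1, an acid-sensitive tandem-pore leak channel, and lies on the plus strand at chr5:30588170-30625271. It was at 87.3 and 98.4 CPM in mature apical and 28.3 and 32.6 CPM in mature basal cells, a log2 fold change of 1.52 ± 0.16 (SE here and below, edgeR adjusted p = 0.00177). The apical and basal libraries did not overlap, and of the 22 groups mature apical cells had the highest level, followed by mural-like cells at 33.2 CPM over both libraries. *Kcnn2*, which encodes the small-conductance calcium-activated channel SK2, was at 9.42 and 11.5 CPM against 1.05 and 1.12 CPM (edgeR adjusted p = 0.0154). With 83 UMIs in apical and 2 UMIs in basal cells, the ratio of its levels was 9.47 (95% counting interval 2.54 to 79.5). *Kcns3*, a silent subunit that forms channels only together with Kv2 subunits, was at 99.8 and 112 CPM against 55.5 and 61.8 CPM, a smaller difference of 0.76 ± 0.14 on the log2 scale (edgeR adjusted p = 0.0174).

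*Kcnk12*, which encodes THIK-2, a tandem-pore channel that is silent or weakly active at the cell surface, showed the widest separation on the basal side. It was at 0.214 and 0.294 CPM in mature apical cells, with 1 UMI in each library, and at 18.9 and 15.7 CPM in mature basal cells. The ratio of basal to apical levels was 70.1 (95% counting interval 17.9 to 604, edgeR adjusted p = 0.000905). The calcium channel beta subunit *Cacnb4* was at 6.42 and 6.46 CPM in apical and 29.3 and 24.7 CPM in basal cells (log2 fold change −2.15 ± 0.26, edgeR adjusted p = 0.00328). *Cacng5*, a gamma subunit that also acts on AMPA receptors, was at 5.14 and 6.46 CPM against 26.2 and 18.0 CPM (log2 fold change −2.03 ± 0.32, edgeR adjusted p = 0.00983). *Kcnmb3*, a large-conductance channel beta subunit, was at 9.63 and 7.63 CPM against 21.0 and 27.0 CPM (log2 fold change −1.54 ± 0.28, edgeR adjusted p = 0.0173). In all of these the lower basal library lay above the higher apical library. *Scn9a* was also higher in basal cells, by 0.49 on the log2 scale with an SE of 0.12 (edgeR adjusted p = 0.0458), with 184 CPM in both apical libraries and 225 CPM in the lower basal library.

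With the library as a block, 13 channel genes were called higher and 11 lower, while the calls over all 12722 genes went from 1193 to 2463. The added calls were *Cacna1a* (log2 fold change 3.24), *Cacna1d* (0.85), *Cacna1h* (0.66) and *Kcnma1* (0.45) in apical cells and *Kcnk1* (−1.59), *Kcnq1* (−2.87) and *Kcnq3* (−0.67) in basal cells, among others. With DESeq2 the call for *Kcnn2* was lost, with 1 fit over all cell groups those for *Kcns3*, *Kcnmb3* and *Scn9a*, and with neurons chosen by marker UMIs the call for *Kcns3*. With that choice of neurons *Kcnk1* turned to the apical side (log2 fold change 3.42).

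**Figure D2:**
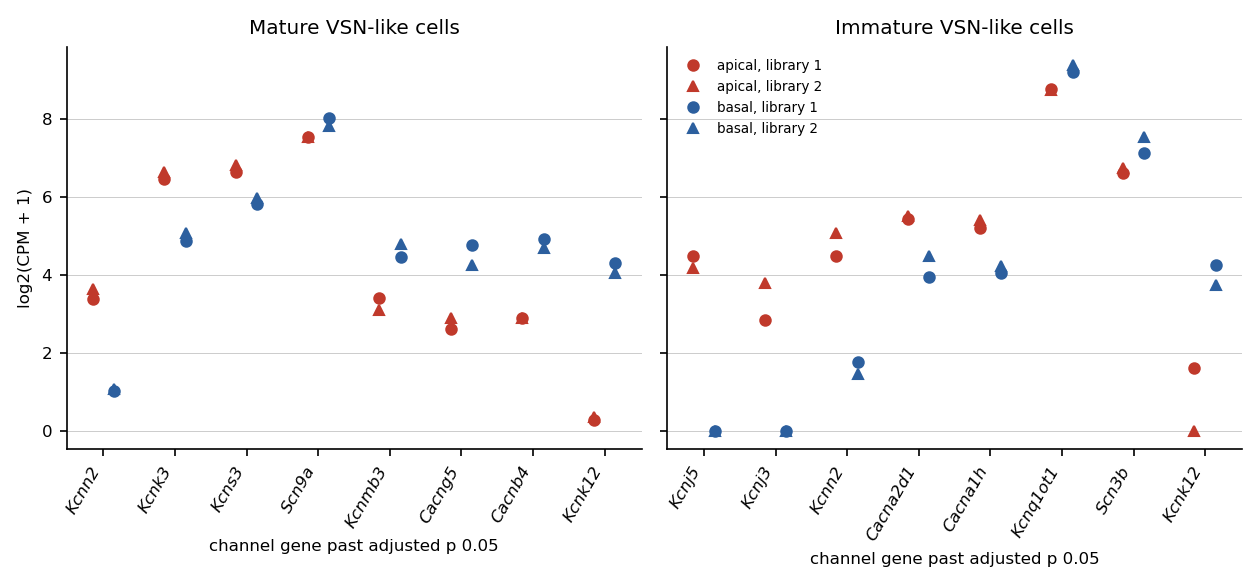
Levels of channel genes called between apical and basal VSN-like cells, as log2(CPM + 1), in mature cells (left) and immature cells (right). Red marks apical and blue basal cells, circles library 1 and triangles library 2. *Kcnk12* stands apart on the basal side in both panels, and *Kcnk3* in the mature panel and *Kcnj5* in the immature panel stand apart on the apical side.

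The same question was asked of the immature neurons. Immature apical cells had the G protein-gated inward rectifiers *Kcnj5* and *Kcnj3* where immature basal cells had no UMI of either, and more *Kcnn2*, *Cacna2d1* and *Cacna1h*. Immature basal cells had more *Kcnk12*, *Scn3b* and *Kcnq1ot1*. 5 of 48 channel genes tested were higher and 3 lower in apical cells, 16.7% in all, against 3.55% higher, 3.81% lower and 7.36% in either direction over all 10637 genes tested. The median log2 fold change was −0.33 over the channel genes and 0.01 over all genes.

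*Kcnj5* encodes GIRK4 and *Kcnj3* encodes GIRK1, which assemble into the channel that G protein beta-gamma subunits open in the heart. *Kcnj5*, on the minus strand at chr9:32314707-32344350, was at 21.5 and 17.2 CPM in immature apical cells and at 0 in both libraries of immature basal cells, at least 9.18-fold higher against a floor of 3 UMIs over the basal group (edgeR adjusted p = 0.000849). *Kcnj3*, on the plus strand at chr2:55435970-55598145, was at 6.15 and 12.9 CPM against 0 and 0, at least 4.17-fold higher (edgeR adjusted p = 0.0236). In mature cells both genes were near 0, with 1 UMI of *Kcnj5* and 3 UMIs of *Kcnj3* in mature apical cells.

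*Kcnn2* was at 21.5 and 33.0 CPM in immature apical and 2.40 and 1.78 CPM in immature basal cells, with 44 and 3 UMIs, a ratio of 12.2 (95% counting interval 3.92 to 61.6, edgeR adjusted p = 0.00098). *Cacna2d1*, an alpha2delta subunit, was at 42.05 and 44.5 CPM against 14.4 and 21.3 CPM (log2 fold change 1.26 ± 0.34, edgeR adjusted p = 0.0274). *Cacna1h* was at 35.9 and 41.6 CPM against 15.6 and 17.8 CPM (log2 fold change 1.17 ± 0.34, edgeR adjusted p = 0.0455). For all 3 genes both apical libraries lay above both basal libraries.

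*Kcnk12* was on the basal side at this stage too, at 2.05 and 0 CPM in immature apical and 18.0 and 12.4 CPM in immature basal cells (2 and 22 UMIs, a ratio of 13.2 with a 95% counting interval of 3.24 to 116, edgeR adjusted p = 0.0104). *Scn3b* was at 96.4 and 106 CPM against 139 and 187 CPM (log2 fold change −0.72 ± 0.19, edgeR adjusted p = 0.0232). *Kcnq1ot1*, the long antisense transcript of the imprinted *Kcnq1* locus, was at 438 and 426 CPM against 587 and 664 CPM (log2 fold change −0.57 ± 0.12, edgeR adjusted p = 0.00722). It lies on the minus strand at chr7:143203458-143296549, within *Kcnq1* at chr7:143106362-143427042 on the plus strand. Whether strand was used in counting was not stated in the sources. *Kcnq1* itself had no UMI in immature basal cells. The part of *Kcnq1* reads in the *Kcnq1ot1* counts was not tested.

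With the library as a block 6 channel genes were lower in immature apical cells, *Scn3a* among them (log2 fold change −0.55), and *Kcnh7* was called higher (1.37). Calls over all 10637 genes were 783 in the main fit, 1319 with the block and 286 with DESeq2. *Kcnj5* kept its call under all 11 alternatives that gave a p-value, whereas the others each lost it under at least 1 of them: DESeq2 called 2 genes higher and 1 lower, and choosing neurons by marker UMIs 3 higher and 5 lower.

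The sequences before the start of 4 genes with wide apical to basal differences are shown because the branches also differ in transcription factors with known binding motifs. *Tfap2e*, an AP-2 factor, was at 143 and 125 CPM in mature basal and 2.14 and 3.23 CPM in mature apical cells, and *Meis2* at 778 and 736 CPM in mature apical and 16.8 and 25.8 CPM in mature basal cells. Each run gives the 250 bases before the annotated start in RefSeq on GRCm38.p6, 5′ to 3′ on the strand of the gene, with capitals at matches to the AP-2 motif GCCNNNGGC. *Kcnj5* (chr9:32344345-32344594, minus strand) and *Kcnj3* (chr2:55435720-55435969, plus strand) were called apical, and *Kcnk12* (chr17:87797995-87798244, minus strand) and *Cacng5* (chr11:107915056-107915305, minus strand) basal.
Kcnj5: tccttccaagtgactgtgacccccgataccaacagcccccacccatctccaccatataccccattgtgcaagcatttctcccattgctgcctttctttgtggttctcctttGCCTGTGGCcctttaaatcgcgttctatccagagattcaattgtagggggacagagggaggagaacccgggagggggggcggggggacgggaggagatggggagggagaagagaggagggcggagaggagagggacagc
Kcnj3: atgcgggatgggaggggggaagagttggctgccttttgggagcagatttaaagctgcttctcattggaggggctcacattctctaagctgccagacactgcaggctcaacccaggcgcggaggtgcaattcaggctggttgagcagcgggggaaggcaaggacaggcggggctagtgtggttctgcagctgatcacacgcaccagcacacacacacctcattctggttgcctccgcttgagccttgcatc
Kcnk12: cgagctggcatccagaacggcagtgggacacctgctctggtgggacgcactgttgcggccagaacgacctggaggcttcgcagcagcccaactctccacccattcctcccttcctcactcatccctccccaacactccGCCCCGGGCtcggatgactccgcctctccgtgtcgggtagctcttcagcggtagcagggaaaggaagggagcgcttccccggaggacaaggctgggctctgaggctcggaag
Cacng5: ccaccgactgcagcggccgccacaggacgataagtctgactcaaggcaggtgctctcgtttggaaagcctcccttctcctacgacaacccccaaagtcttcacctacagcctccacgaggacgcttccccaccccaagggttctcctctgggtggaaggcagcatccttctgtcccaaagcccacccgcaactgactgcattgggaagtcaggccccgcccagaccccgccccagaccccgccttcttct
GC content was 58.0% in the *Kcnj5*, 58.4% in the *Kcnj3*, 64.8% in the *Kcnk12* and 62.0% in the *Cacng5* sequence. The AP-2 motif, which reads the same on both strands, matched once in *Kcnj5* and once in *Kcnk12*, and the Meis motif TGACAG, searched on both strands, matched in none of the 4. Over 32851 annotated promoters of this length, 13.7% held the AP-2 motif and 15.9% the Meis motif, and over 140 promoters of 104 channel genes the shares were 15.7% and 15%. Among the genes called between branches at either stage, 2 of 5 promoters on the apical side and 1 of 9 on the basal side held the AP-2 motif, and none held the Meis motif.

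The next comparisons asked how channel genes change from immature to mature neurons. In apical cells 31 of 64 channel genes tested rose and 11 fell, and in basal cells 24 of 54 rose and 6 fell. Delayed rectifiers, calcium-activated potassium channels, sodium channel alpha subunits and calcium channel subunits made up most of the rises, and the inward rectifiers *Kcnj5* and *Kcnj3*, *Kcnb2*, *Cacng4* and *Kcnq1ot1* were among the falls. Over all genes tested 21.0% rose and 16.7% fell in apical cells (37.6% in either direction, against 65.6% of the channel genes), and 18.8% rose and 16.5% fell in basal cells (35.4%, against 55.6%). The median log2 fold change of the channel genes was 1.24 in apical cells, or 1.15 with genes absent from a group set at their bound, and 1.22 in basal cells, against 0.10 and −0.00 over all genes. The mature cells were deeper than the immature cells in both branches. The part of depth in these counts was not tested.

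By family, 4 of 6 sodium channel alpha subunits tested rose in apical and 3 of 5 in basal cells, and none fell. Of calcium channel alpha1 subunits 3 of 5 rose in apical and 2 of 4 in basal cells. Of the auxiliary calcium channel subunits 6 of 10 rose and 2 fell in apical cells, and 5 of 8 rose and 1 fell in basal cells. Of pore-forming Kv subunits 4 of 8 rose and 1 fell in apical cells, and 3 of 6 rose and 1 fell in basal cells. Of the calcium- or sodium-activated group 5 of 9 rose and 1 fell in apical cells, and 4 of 7 rose and 1 fell in basal cells. Of the inward rectifiers 2 of 3 fell in apical cells, and 1 of 1 rose in basal cells.

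*Kcnk3* had the widest apical rise of the genes with a UMI in both groups, from 1.03 and 0 CPM in immature to 87.3 and 98.4 CPM in mature apical cells (1 and 743 UMIs, a ratio of 154 with a 95% counting interval of 27.5 to 6083, edgeR adjusted p = 1.02e-06). In basal cells it went from 6.00 and 3.55 CPM to 28.3 and 32.6 CPM (log2 fold change 2.58 ± 0.45, edgeR adjusted p = 0.000833). *Kcns3* rose from 7.18 and 8.61 CPM to 99.8 and 112 CPM in apical cells (log2 fold change 3.80 ± 0.23, edgeR adjusted p = 1.07e-06). The basal rise was from 9.61 and 14.2 CPM to 55.5 and 61.8 CPM (log2 fold change 2.35 ± 0.31, edgeR adjusted p = 0.000109). *Kcng1*, another silent subunit, was absent from immature apical cells and at 7.28 and 7.93 CPM in mature ones, at least 4.21-fold higher (edgeR adjusted p = 0.00255).

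*Kcnma1* rose in both branches, while other calcium-activated channel genes moved in either direction. *Kcnma1* went from 9.23 and 15.8 CPM to 81.3 and 83.7 CPM in apical cells (log2 fold change 2.82 ± 0.24, edgeR adjusted p = 1.2e-05). The basal change was from 9.61 and 17.8 CPM to 49.2 and 65.2 CPM (log2 fold change 2.13 ± 0.34, edgeR adjusted p = 0.000391). *Kcnn3*, the SK3 channel, rose from 2.05 and 1.43 CPM to 18.0 and 27.6 CPM in apical cells, and *Kcnn1*, the SK1 channel, from 2.05 and 2.87 CPM to 13.1 and 15.6 CPM. *Kcnmb3* rose in basal cells from 2.40 and 1.78 CPM to 21.0 and 27.0 CPM (3 and 44 UMIs, a ratio of 11.1 with a 95% counting interval of 3.56 to 55.9). *Kcnn2* went the other way in apical cells, from 21.5 and 33.0 CPM to 9.42 and 11.5 CPM (log2 fold change −1.31 ± 0.29, edgeR adjusted p = 0.00551). *Kcnmb4* fell in basal cells from 36.0 and 28.4 CPM to 7.33 and 12.4 CPM (log2 fold change −1.71 ± 0.39, edgeR adjusted p = 0.00504). Its antisense neighbour *Kcnmb4os2* overlaps it at the start of both genes, and whether strand was used in counting was not stated in the sources.

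Among sodium channels, *Scn8a* rose in apical cells from 2.05 and 2.87 CPM to 29.3 and 35.5 CPM (log2 fold change 3.77 ± 0.38, edgeR adjusted p = 3.43e-05). The basal rise was from 8.41 and 8.88 CPM to 23.1 and 24.7 CPM (log2 fold change 1.47 ± 0.42, edgeR adjusted p = 0.0156). *Scn3a* rose from 77.9 and 83.2 CPM to 146 and 168 CPM in apical cells, and *Scn9a* already stood at 138 and 141 CPM in immature apical and 168 and 171 CPM in immature basal cells. Its rises were 0.45 ± 0.12 and 0.54 ± 0.16 on the log2 scale (edgeR adjusted p = 0.014 and 0.0185). *Scn3b* fell in basal cells, from 139 and 187 CPM to 75.4 and 78.7 CPM (log2 fold change −1.05 ± 0.20, edgeR adjusted p = 0.00158).

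Calcium channel subunits changed in both directions. *Cacng4*, a gamma subunit of the AMPA receptor class, fell in apical cells from 60.5 and 70.3 CPM to 3.21 and 4.11 CPM (log2 fold change −4.10 ± 0.25, edgeR adjusted p = 1.24e-06). In basal cells it fell from 70.8 and 128 CPM to 2.10 and 0 CPM (131 and 2 UMIs, a ratio of 86.6 with a 95% counting interval of 23.5 to 722). *Cacng2*, stargazin of the same class, rose in apical cells from 3.08 and 5.74 CPM to 53.3 and 71.6 CPM (log2 fold change 3.92 ± 0.34, edgeR adjusted p = 1.22e-05) and in basal cells from 7.21 and 1.78 CPM to 61.8 and 61.8 CPM (3.61 ± 0.41, edgeR adjusted p = 2.9e-05). The pair thus ran in opposite directions, with no overlap between mature and immature libraries for either gene in either branch. *Cacnb4* rose in basal cells from 1.20 and 1.78 CPM to 29.3 and 24.7 CPM (2 and 50 UMIs, a ratio of 18.9 with a 95% counting interval of 4.97 to 160.5). *Cacng5* rose in basal cells from 2.40 and 1.78 CPM to 26.2 and 18.0 CPM (3 and 41 UMIs). *Cacna1c* rose in apical cells from 7.18 and 2.87 CPM to 24.6 and 33.5 CPM (log2 fold change 2.47 ± 0.39, edgeR adjusted p = 0.000684) and in basal cells from 2.40 and 5.33 CPM to 18.9 and 34.8 CPM (2.85 ± 0.58, edgeR adjusted p = 0.00224). *Cacna2d3* and *Cacng7* rose in apical cells, to 10.7 and 12.3 CPM and to 8.56 and 12.3 CPM, from 2 and 1 UMIs in immature cells. *Cacna1d* rose in apical cells from 18.5 and 11.5 CPM to 36.2 and 34.4 CPM, and *Cacna1h* rose in apical cells from 35.9 and 41.6 CPM to 61.2 and 74.3 CPM. *Cacnb1* fell in apical cells from 5.13 and 11.5 CPM to 1.50 and 2.06 CPM.

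*Kcna6* rose from 12.3 and 11.5 CPM to 103 and 107 CPM in apical cells (log2 fold change 3.18 ± 0.21, edgeR adjusted p = 1.83e-06) and from 16.8 and 26.7 CPM to 77.5 and 95.5 CPM in basal cells (2.05 ± 0.29, edgeR adjusted p = 0.000163). *Kcnb2*, a Kv2 delayed rectifier, fell in apical cells from 7.18 and 7.17 CPM to 0.642 and 0.294 CPM (log2 fold change −3.68 ± 0.79, edgeR adjusted p = 0.00441). In basal cells it fell from 8.41 and 17.8 CPM to 0 and 1.12 CPM, with 17 and 1 UMIs. *Kcnq5*, an M-current subunit, fell in apical cells from 8.20 and 12.9 CPM to 0.214 and 1.47 CPM (log2 fold change −3.62 ± 0.77, edgeR adjusted p = 0.00412). *Kcnj5* fell in apical cells from 33 UMIs to 1 UMI (ratio of immature to mature levels 159, 95% counting interval 26.7 to 6485), and *Kcnj3* from 15 to 3 UMIs (24.2, 6.83 to 130.2). *Kcns2* was at 10.8 and 5.33 CPM in immature basal cells and at 0 in mature ones, at least 5.29-fold lower (edgeR adjusted p = 0.00693). *Kcnj2* and *Kcnq1* were at 0 in immature basal cells and at 6.29 and 6.74 CPM and 8.38 and 2.25 CPM in mature ones, at least 3.03-fold and 2.52-fold higher. *Kcnk1* fell in apical cells from 15.4 and 22.9 CPM to 1.50 and 5.58 CPM (log2 fold change −2.43 ± 0.54, edgeR adjusted p = 0.00521). *Hcn2* rose from 7.18 and 22.9 CPM to 39.2 and 38.5 CPM in apical cells, and *Kcnh2*, the ERG1 channel, from 2.05 and 1.43 CPM to 9.85 and 10.6 CPM. *Kcnh7*, the ERG3 channel, fell in apical cells from 42.05 and 51.6 CPM to 24.4 and 30.8 CPM (log2 fold change −0.70 ± 0.21, edgeR adjusted p = 0.0244).

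*Kcnq1ot1* fell in both branches, from 438 and 426 CPM to 205 and 217 CPM in apical cells (log2 fold change −0.98 ± 0.10, edgeR adjusted p = 5.25e-05) and from 587 and 664 CPM to 153 and 173 CPM in basal cells (−1.91 ± 0.14, edgeR adjusted p = 4.78e-07). *Kcnmb4os2* fell in apical cells from 23.6 and 40.2 CPM to 13.5 and 17.6 CPM. In basal cells 14 genes rose and 3 fell with DESeq2, which called 1856 of all 10875 genes, against 3847 in the main fit. With neurons chosen by marker UMIs the apical calls for *Cacng7*, *Cacna2d3*, *Kcnk1*, *Kcnh7* and *Kcnmb4os2* were lost. With the library as a block *Hcn4* was added in basal cells (log2 fold change 1.16).

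**Figure D3:**
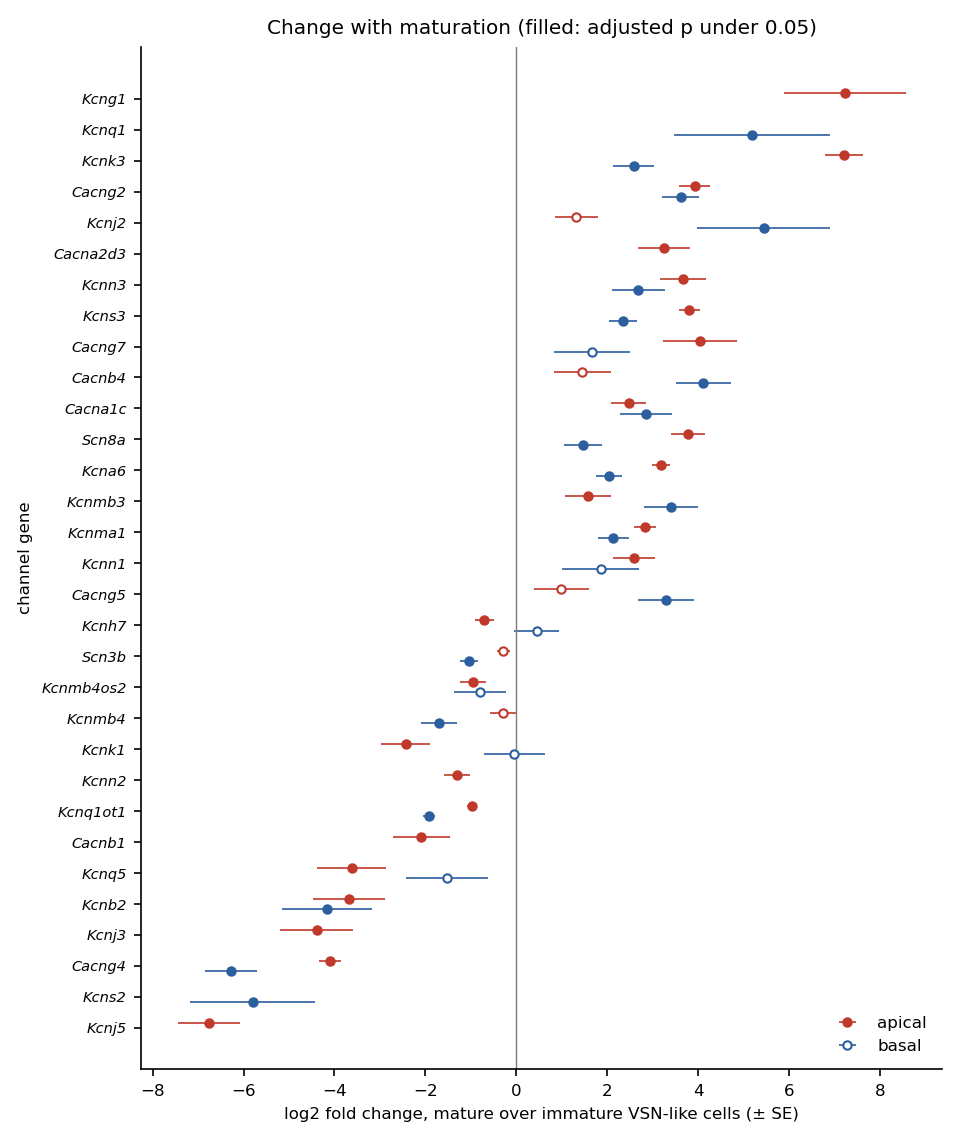
Log2 fold change of mature over immature VSN-like cells for the channel genes named in this comparison, with bars of 1 SE from edgeR, in apical (red) and basal (blue) cells. Filled points have an adjusted p under 0.05, and points right of 0 rose. The fitted values of *Kcng1*, *Kcnq1*, *Kcnj2* and *Kcns2* rest on groups with 0 UMIs and are no bounds; *Cacng4* lies far left and *Cacng2* far right in both branches.

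The difference of the maturation change between branches was tested as an interaction. Of 67 channel genes tested, 2 changed more in the apical direction and none in the basal direction. Over all 13448 genes tested 0.573% were called higher and 0.610% lower, 1.18% in either direction. *Kcnk3* rose more in apical cells, by 4.50 ± 0.87 on the log2 scale (edgeR adjusted p = 0.0333), a value that rests on 1 UMI in immature apical cells and on 7 UMIs in immature basal cells. *Kcnq1ot1* fell less in apical cells, by 0.88 ± 0.16 (edgeR adjusted p = 0.0217). The call for *Kcnk3* was lost with DESeq2 and the call for *Kcnq1ot1* in 1 fit over all cell groups, and with the library as a block *Kcnk1* was called lower (−2.43).

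Genes of the transduction cascade and of ion balance outside the channel families were read from a separate list of 32 genes. In apical cells 19 of 23 tested rose with maturation and none fell, and in basal cells 17 of 22 rose and none fell, with medians of 1.33 and 1.41 on the log2 scale. The calcium-activated chloride channel *Ano2* rose from 8.20 and 11.5 CPM to 61.0 and 60.5 CPM in apical cells (log2 fold change 2.70 ± 0.25, edgeR adjusted p = 2.14e-05). The plasma membrane calcium pump *Atp2b2* rose from 46.1 and 45.9 CPM to 345 and 301 CPM in apical cells (2.86 ± 0.15, edgeR adjusted p = 5.36e-07). Over all genes 21.0% rose in apical and 18.8% in basal cells. Between mature apical and basal cells 4 of 23 were higher and 2 lower, against 3.85% and 5.53% of all genes. *Gng13*, a G protein gamma subunit, was at 1543 and 1486 CPM in apical and 77.5 and 84.3 CPM in basal cells (log2 fold change 4.14 ± 0.10, edgeR adjusted p = 3.88e-06), and *Slc8a1*, the sodium-calcium exchanger, at 31.7 and 31.4 CPM against 7.33 and 6.74 CPM (2.07 ± 0.26, edgeR adjusted p = 0.00386). Between immature apical and basal cells 2 of 19 were higher and 3 lower, against 3.55% and 3.81% of all genes.

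A further list of 21 genes held channel partners that carry other names, such as ankyrins and fibroblast growth factor homologous factors. 6 of 12 tested rose and 4 fell with maturation in apical cells (21.0% and 16.7% over all genes), and 1 of 11 rose and 1 fell in basal cells (18.8% and 16.5%). *Fgf12*, which binds the tail of sodium channels, rose from 148 and 113 CPM to 525 and 505 CPM in apical cells (log2 fold change 2.02 ± 0.15, edgeR adjusted p = 3.92e-06) and from 120 and 117 CPM to 486 and 521 CPM in basal cells (2.10 ± 0.14, edgeR adjusted p = 3.64e-07). *Ank3*, ankyrin-G of the axon initial segment, fell in apical cells from 205 and 230 CPM to 125 and 155 CPM (−0.58 ± 0.13, edgeR adjusted p = 0.00552). None of 11 tested differed between mature apical and basal cells, and 2 of 9 were higher in immature apical cells. For the mature pair of groups edgeR gave adjusted p-values of 0.0552 for *Nedd4l*, a ubiquitin ligase of sodium channels, and 0.0804 for *Ank3*.

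Precursor-like cells (62 cells) already carried part of the neuronal set. *Kcnh8*, an ELK channel, was at 117 and 114 CPM there, against 63.6 and 51.6 CPM in immature apical and 87.7 and 72.8 CPM in immature basal cells. *Scn9a* was at 102 and 126 CPM, *Cacng4* at 106 and 110 CPM and *Kcnb2* at 67.9 and 32.6 CPM. In the 43 progenitor-like cells 6 genes were detected, with *Kcnk1* at 123 and 90.8 CPM and *Kcnh8* at 45.6 and 43.6 CPM. These levels were not tested against the neurons.

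The epithelial groups used a smaller set that included *Kcnk1* and *Kcnq1*. *Cacnb3*, *Kcnk1*, *Kcnq1* and *Kcnq1ot1* were detected in sustentacular-like, basal epithelial-like and non-sensory epithelial-like cells alike. *Kcnk1* encodes TWIK-1, a weakly inward rectifying tandem-pore channel, on the plus strand at chr8:125995170-126030685, and *Kcnq1* encodes the pore of a slow potassium channel that epithelia pair with KCNE subunits. The comparison of the 287 sustentacular-like cells, which support the neurons, with the 1058 basal epithelial-like cells asked which channel genes separate these epithelia. 15 of 48 channel genes tested were higher and 14 lower in sustentacular-like cells, 60.4% in all, against 21.0% higher, 21.3% lower and 42.3% in either direction over all 13419 genes tested. The median log2 fold change was −0.68 over the channel genes, or −0.46 with genes absent from a group set at their bound, and −0.04 over all genes.

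*Kcnk1* was at 532 and 591 CPM in sustentacular-like cells and 93.0 and 117 CPM in basal epithelial-like cells (log2 fold change 2.09 ± 0.13, edgeR adjusted p = 5.28e-09). Its level in sustentacular-like cells was the highest of the 22 groups, followed by non-sensory epithelial-like cells at 182 and 216 CPM. *Kcnq1* was at 45.2 and 39.9 CPM against 7.49 and 5.98 CPM (log2 fold change 2.31 ± 0.24, edgeR adjusted p = 1.1e-06). *Kcna1*, a Kv1 subunit, was at 14.5 and 18.2 CPM against 0 and 0.249 CPM (58 UMIs and 1 UMI, a ratio of 141 with a 95% counting interval of 24.4 to 5678). *Cacna2d3* was at 7.54 and 8.79 CPM against 0 and 0, at least 23.6-fold higher (edgeR adjusted p = 3.93e-05). *Kcnj12*, a strong inward rectifier, was at 11.3 and 10.6 CPM against 0.214 and 0.249 CPM (39 and 2 UMIs, a ratio of 47.5 with a 95% counting interval of 12.3 to 406). In each of these genes both sustentacular libraries lay above both basal epithelial libraries. Other genes higher in sustentacular-like cells included *Kcnn2*, *Kcnk13*, *Cacnb2*, *Kcnf1*, *Kcnh8*, *Cacnb3*, *Cacna1d* and *Kcnma1*, at 2.15 to 53.3 CPM in these cells. *Kcnma1* was at 5.38 and 7.62 CPM against 1.28 and 2.74 CPM.

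Basal epithelial-like cells had more *Kcnj15*, *Kcnh1* and *Kcnq5*. *Kcnj15*, an inward rectifier of epithelia, was at 1.61 and 1.76 CPM in sustentacular-like and 40.9 and 46.1 CPM in basal epithelial-like cells (log2 fold change −4.99 ± 0.32, edgeR adjusted p = 7.05e-09). *Kcnh1*, an ether-a-go-go channel, was at 4.31 and 5.86 CPM against 36.6 and 43.6 CPM (log2 fold change −3.31 ± 0.27, edgeR adjusted p = 8.93e-08). *Kcnq5* was at 0 against 6.84 and 8.23 CPM, at least 8.89-fold lower (edgeR adjusted p = 3.6e-05). *Kcnj16*, a partner of Kir channels in epithelia and glia, was at 0 against 1.92 and 3.74 CPM, at least 3.28-fold lower. *Kcnb2*, *Cacng7*, *Kcnk4*, *Kcnc2* and *Kcne1l* were also at 0 in sustentacular-like cells, with bounds of 1.37-fold to 2.87-fold. *Cacna2d1*, *Kcnj2* and *Kcnq1ot1* were also lower in sustentacular-like cells. With DESeq2 and with a stricter filter on low counts 7 genes were lower, and with the library as a block the call for *Kcne1l* was lost (log2 fold change −4.97). DESeq2 called 3375 of all 13419 genes and the stricter filter 5329 of 11118, against 5680 in the main fit.

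Non-sensory epithelial-like cells (781 cells) had *Kcnk1* at 182 and 216 CPM, *Kcnj15* at 48.0 and 53.3 CPM and *Kcnh1* at 31.3 and 28.7 CPM. *Kcnv1*, a silent subunit, was at 3.64 and 2.95 CPM there, more than in each other group. *Kcne1*, the classical partner of *Kcnq1*, passed the detection limit in this group and in no other. *Kcne2* had 2 UMIs over all named groups, *Kcne3* was detected in dendritic-like and *Kcne4* in fibroblast-like cells.

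**Figure D4:**
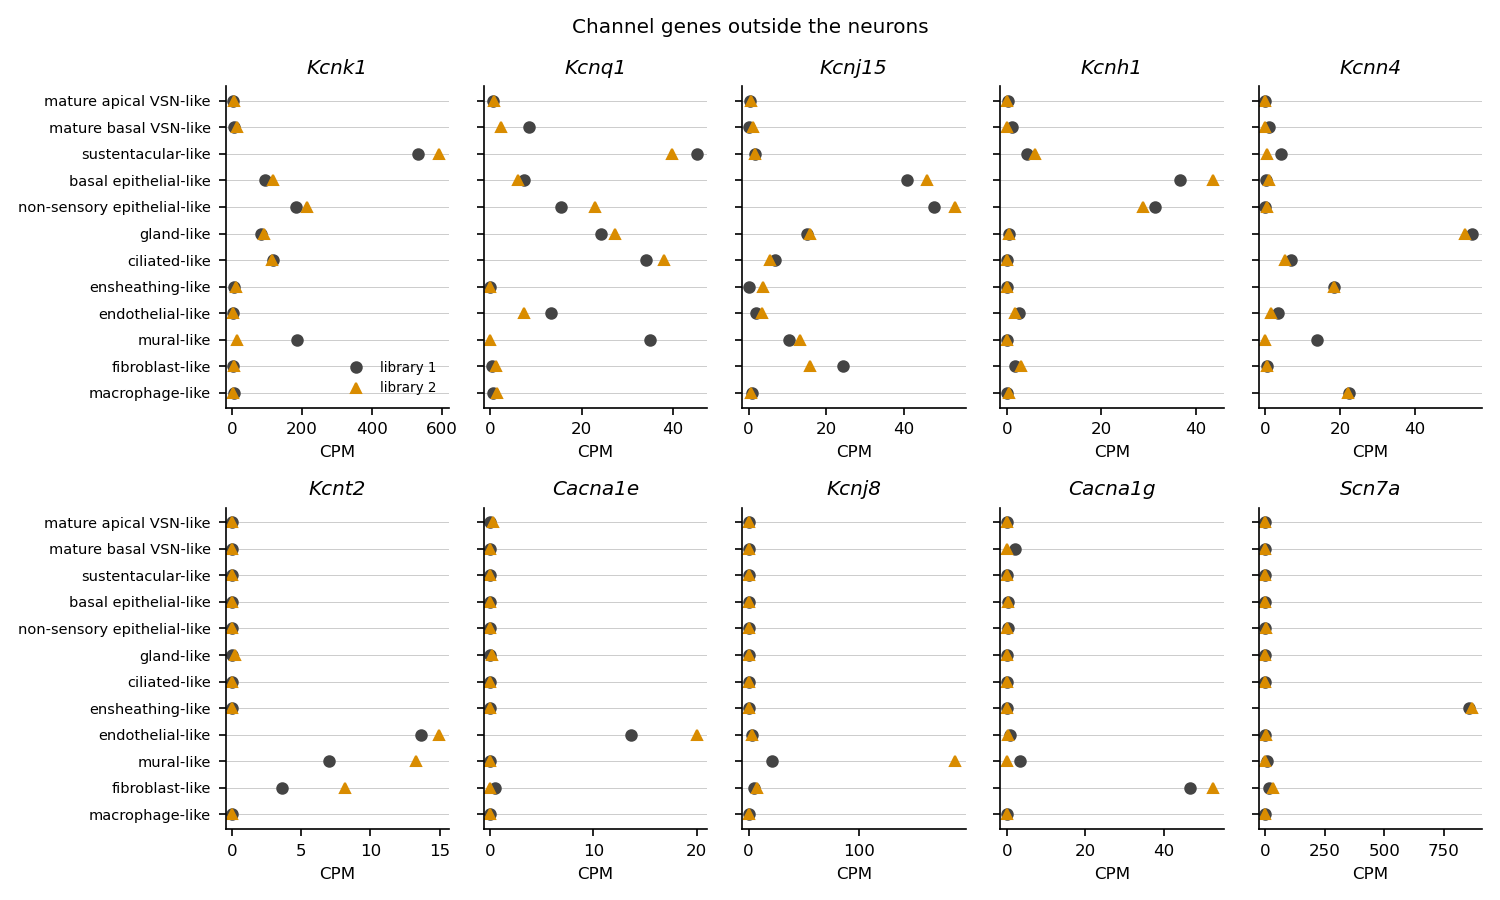
Levels in CPM per library of 10 channel genes in 12 cell groups, with circles for library 1 and triangles for library 2. *Kcnk1* was highest in sustentacular-like cells (532 and 591 CPM), *Kcnj15* and *Kcnh1* in basal and non-sensory epithelial-like cells, *Cacna1e* in endothelial-like cells (13.7 and 20.03 CPM), *Kcnj8* in mural-like cells of library 2 (186 CPM, from 3 cells) and *Scn7a* in ensheathing-like cells (854 and 866 CPM).

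Endothelial-like and mural-like cells, the lining and the contractile coat of blood vessels, were compared to ask which channels each uses. The 780 endothelial-like cells had *Cacna1e*, an R-type calcium channel, at 13.7 and 20.03 CPM, *Kcnt2*, a sodium-activated potassium channel, at 13.7 and 14.9 CPM and *Scn3a* at 11.0 and 21.7 CPM. The mural-like group was small and shallow, with 122 cells in library 1 and 13 in library 2. All 8 mural markers were raised at least 4-fold in it, among them *Acta2* (1623 and 5028 CPM), *Rgs5* (750 and 2700 CPM) and *Myh11* (345 and 838 CPM). The fibroblast-like group also held mural markers, with 5 of the 8 raised and *Acta2* at 4162 and 3169 CPM but *Rgs5* at 0.905 and 0 CPM.

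The mural-like cells of library 1 also carried RNA of other cell types. *Omp* was at 105 and 13.3 CPM in the 2 libraries, the sustentacular gene *Cyp2a5* at 422 and 13.3 CPM, the macrophage gene *C1qa* at 380 and 53.2 CPM, the epithelial gene *Krt5* at 136 and 13.3 CPM and the endothelial gene *Pecam1* at 62.8 and 0 CPM. As whole lists, 7 sustentacular markers summed to 509 CPM (2414 CPM in sustentacular-like cells, with 3 markers at 0 in mural-like cells), 6 endothelial markers to 227 CPM (3351 CPM in endothelial-like cells, 1 marker at 0), 7 macrophage markers to 810 CPM (25084 CPM in macrophage-like cells) and 6 fibroblast markers to 3925 CPM (30626 CPM in fibroblast-like cells). 8 gland markers summed to 57514 CPM in mural-like cells, against 440 to 4357 CPM in the other groups apart from the gland-like cells. The part of this RNA in the channel levels of the mural-like cells was not tested.

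11 of 34 channel genes tested were higher and 2 lower in mural-like than in endothelial-like cells, 38.2% in all, against 9.37% higher, 9.42% lower and 18.8% in either direction over all 12287 genes tested. The median log2 fold change was 1.93 over the channel genes and −0.19 over all genes. Fewer cells and fewer UMIs per cell stood behind the mural values, and 4 of the tested genes were absent from one of the groups.

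*Kcnj8*, which encodes the Kir6.1 pore of the vascular ATP-sensitive channel, was at 20.9 and 186 CPM in mural-like cells (20 UMIs, held by 1 cell of library 1 and 3 cells of library 2) and 3.42 and 2.72 CPM in endothelial-like cells (log2 fold change 4.21 ± 0.63, edgeR adjusted p = 1.07e-09). The 2 mural libraries differed widely and both lay above the endothelial ones. *Cacna1c*, the L-type channel of smooth muscle, was at 10.5 and 53.2 CPM against 0.380 and 1.02 CPM (7 and 4 UMIs, log2 fold change 4.60 ± 1.10, edgeR adjusted p = 0.000362). *Cacna2d1*, its auxiliary subunit, was at 38.4 and 93.1 CPM against 1.90 and 2.71 CPM (log2 fold change 4.32 ± 0.68, edgeR adjusted p = 7.28e-09). *Kcnab1*, a Kv beta subunit, was at 20.9 and 26.6 CPM against 1.14 and 0 CPM (8 and 3 UMIs, a ratio of 41.1 with a 95% counting interval of 9.88 to 241). *Kcnk3* was at 31.4 and 39.9 CPM against 3.04 and 2.38 CPM (log2 fold change 3.48 ± 0.77, edgeR adjusted p = 7.75e-05). *Kcng2* and *Kcns3* were at 14.0 and 26.6 CPM each, with 6 UMIs each.

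*Kcnk1* had the widest fitted difference of the genes called higher in mural-like cells, at 185 and 13.3 CPM against 4.17 and 3.39 CPM (log2 fold change 5.07 ± 0.42), with 53 UMIs in library 1 and 1 UMI in library 2. Over both libraries *Kcnk1* stood at 561 CPM in sustentacular-like and 198 CPM in non-sensory epithelial-like cells. It was at 151 CPM in T cell-like, 115 CPM in ciliated-like and 87.0 CPM in gland-like cells. The source of its counts in mural-like cells was not tested. *Kcnmb2* was at 34.9 and 13.3 CPM against 1.52 and 1.36 CPM. *Cacnb3* and *Scn9a* were at 55.8 and 24.4 CPM in library 1 and at 0 in library 2, so that library 2 alone gave the opposite direction. *Cacna1e* was at 0 in both libraries, at least 2.05-fold lower (edgeR adjusted p = 0.0118).

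In the 23 and 7 mural-like cells with UMIs of at least 3 mural markers, a subset chosen after seeing the data, *Omp* was at 49.5 and 15.8 CPM. There *Kcnj8* was at 59.4 and 221 CPM (log2 fold change 5.12), *Cacna2d1* at 79.2 and 110 CPM (5.06), *Kcnab1* at 49.5 and 31.5 CPM (5.89), *Cacna1c* at 19.8 and 63.1 CPM (5.35) and *Kcnk3* at 49.5 and 47.3 CPM (3.94), all called higher than in endothelial-like cells. *Kcnk1* was at 119 and 0 CPM (4.02). *Kcnmb2*, *Cacnb3*, *Scn9a* and *Cacna1e* were not called in the subset, and with the library as a block the calls for *Cacna1e* (log2 fold change −7.53), *Kcng2* (2.85), *Kcns3* (3.97) and *Scn9a* (3.06) were lost. With a mitochondrial limit of 10% the calls for *Kcnj8*, *Kcnk1*, *Kcns3* and *Scn9a* were among those lost, while 27 channel genes were called higher. Calls over all genes at that limit are not given here.

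The shares of cells with a UMI were read after thinning each cell to 3000 UMIs, with exact binomial 95% intervals that cover counting error only. *Scn9a* was seen in 42.7% of 593 mature apical cells (38.6 to 46.8%) and in 62.0% of 108 mature basal cells (52.2 to 71.2%). *Kcnma1* was seen in 21.4% (18.2 to 24.9%) and 21.3% (14.0 to 30.2%), and *Kcnk3* in 21.8% (18.5 to 25.3%) and 12.04% (6.57 to 19.7%). *Kcnk12* was seen in 0 of 593 apical cells, which allows a share of cells with a UMI of up to 0.506% at a limit of 3 cells (exact upper limit 0.62%), and in 2.78% of basal cells (0.577 to 7.9%). *Kcnj5* was seen in 7.89% of 190 immature apical cells (4.49 to 12.7%) and in 0 of 154 immature basal cells, which allows up to 1.95% by the same limit (exact upper limit 2.37%). Thinning left out 1 to 6 cells in each of these groups, and unthinned shares ran from 0.336% and 13.8% for *Kcnk12* in apical and basal cells to 88.2% and 96.3% for *Scn9a*. In the 1082 macrophage-like cells deep enough, a type that should lack these genes, the thinned shares of these 5 genes were 0 to 0.462%, at a median of 4445.5 UMIs before thinning.

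*Kcnk1* was seen in 77.5% of 276 sustentacular-like cells (72.1 to 82.3%) and in 24.1% of 1035 basal epithelial-like cells (21.5 to 26.8%), against 0.647% of macrophage-like cells. The unthinned shares were 96.5% and 48.8%. *Kcnj8* was seen in 7.41% of the 27 mural-like cells deep enough (0.91 to 24.3%), with 108 cells left out, and in 0.646% of 619 endothelial-like cells (0.176 to 1.65%). The unthinned shares of *Kcnj8* were 2.96% and 1.67%, and the interval of the mural share spanned the endothelial one.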

How the data were processed

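The data are 2 libraries of whole-VNO cells, captured with a 10x 3′ kit. The authors aligned reads to mm10 and counted UMIs with Cell Ranger 4, then pooled both libraries with its aggregation step, whose depth setting was not given in the sources used here. The deposited values are raw UMI counts per gene and barcode, and tests used the counts as deposited. Barcodes were kept at 200 to 9000 genes and a mitochondrial share of up to 5%, and genes seen in at least 3 cells (21823 genes) entered the clustering.

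Clusters came from Seurat 5.3.0 (R 4.3.3), run on 2000 variable genes from which the 143 channel genes were left out (30 components, resolution 0.8; 15 components within the neuronal lineage at resolution 1 and within stroma and ciliated cells at 0.5). A cluster was named where its fixed markers were raised 4-fold, or 1.5-fold within the lineage. Names, folds and resolutions were set after the clusters were seen. Scrublet (scanpy 1.11.5) marked 68 and 104 cells (1.19% and 2.12%) as doublets at an assumed rate of 8%, and these cells were kept in the main analysis. Libraries of a group differed by more than sampling noise, with a chi-square of 1.523 to 10.18 per degree of freedom, so they were treated as 2 samples.

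UMIs were summed per library and group. Genes with at least 10 UMIs in a comparison were tested with edgeR 4.0.16 (TMM, quasi-likelihood, Benjamini-Hochberg over all genes, threshold 0.05), in a fit of the groups compared. SE was taken as the log2 fold change over the root of F. The script recovered known changes in counts simulated with a fixed dispersion and no effect shared within a library. That simulation did not carry the differences between libraries given above, so it gives no error rate for these data. Groups with an equal library number share that library and its animals. The correlation of their deviations was 0.025 to 0.0715. Alternatives were a library block, DESeq2 1.42.0, median-ratio size factors, other filters, 1 fit over all groups, a mitochondrial limit of 10%, resolution 0.5, clustering with the channel genes, no doublets, and neurons chosen by marker UMIs. A fold against a group with 0 UMIs was computed against 3 UMIs over that group. A ratio with 1 to 3 UMIs has an exact 95% counting interval. Shares of cells used 3000 UMIs per cell.

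The channel genes and lists were chosen with earlier results of these data known. Genes were named where they passed the test and moved the same way in both libraries (up to 12 per direction by log2 fold change), where a group had at least 2 times the CPM of every other group in both libraries, or from a set of neuronal, epithelial and vascular channel genes named whatever their values. Genes outside this rule were chosen after their values were seen. Some channel genes are counted in the totals but not reported here by name or plotted. Promoters came from RefSeq (GRCm38.p6), cut to the 250 bases before the start. For each branch the 2 called genes with the widest difference were shown whose window entered the annotated gene by at most 10 bases.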

Additional observations from a re-analysis of the deposited data

Results flagged for a closer look

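The maturation change of 2 channel genes differed between apical and basal VSN-like cells by the interaction test in edgeR. For *Kcnk3* the change was larger in apical cells by 4.50 on the log2 scale (SE 0.87, adjusted p = 0.0333), and each library alone gave the same direction, with 3.89 in library 1 and 5.03 in library 2. The immature apical cells held 1 UMI of *Kcnk3* in 192 cells and the immature basal cells held 7 UMIs in 160 cells. For *Kcnq1ot1* the fall was smaller in apical cells by 0.88 (SE 0.16, adjusted p = 0.0217), with 0.85 in library 1 and 0.96 in library 2. Over 10 alternatives the adjusted p ranged from 0.00494 to 0.0748 for *Kcnk3*, past the threshold in 9, and from 0.000137 to 0.134 for *Kcnq1ot1*, past the threshold in 9.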

How the results depend on the processing

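With 2 libraries the tests rest on few degrees of freedom, low counts limit what the small groups can show, and in the mural-like group 122 of 135 cells come from library 1. Of 2147 values of single genes under alternatives other than a single library, 2007 kept their direction and side of the threshold, 81 lost the call, 56 gained it and 3 reversed. The cause of the changes below was not tested. Median-ratio size factors changed no call of a channel gene.

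For the counts of genes called in the mature apical to basal comparison (4 higher, 5 lower), no filter gave 11 and 9, the block for the library, which pairs the groups, 13 and 11, neurons by marker UMIs 7 and 9, filterByExpr 8 higher, and a mitochondrial limit of 10% 7 higher. Among all genes the main fit called 1193 of 12722, no filter 2165 of 17115, filterByExpr 1679 of 10169 and the block 2463 of 12722. For the immature comparison (5 and 3), DESeq2 gave 2 and 1, neurons by marker UMIs 3 and 5, the mitochondrial limit 2 higher, and the library block 6 lower. DESeq2 called 286 of all 10637 genes and the block 1319, against 783 in the main fit. For basal maturation DESeq2 gave 14 and 3 (24 and 6), with 1856 of all 10875 genes called, against 3847 in the main fit. For the interaction (2 and 0), DESeq2 and 1 fit over all groups gave 1 higher, and no filter and the library block 1 lower. Calls over all 13448 genes were 159 in the main fit, 219 with DESeq2, 174 in 1 fit and 586 with the block. No filter called 509 of 18236. For mural against endothelial cells (11 and 2), DESeq2, the library block and the 3-marker subset gave 1 lower, and the mitochondrial limit 27 higher. Calls over all 12287 genes were 2308 in the main fit, 1185 with DESeq2 and 1527 with the block. The subset called 1481 of 12043. For sustentacular against basal epithelial cells (15 and 14), DESeq2 and filterByExpr gave 7 lower and the mitochondrial limit 23 lower. DESeq2 called 3375 of all 13419 genes and filterByExpr 5329 of 11118, against 5680 in the main fit. Calls over all genes are not given here for the mitochondrial limit and for neurons by marker UMIs. Apart from the calls named in the text, the block changed no call of a named gene.

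In each library alone the called genes kept their direction, except in the mural comparison, where 9 to 11 of 11 did so, and *Scn9a* reversed without library 1 (−3.62, against 4.49 without library 2). With neurons by marker UMIs *Kcnk1* reversed between mature apical and basal cells (3.42), and *Kcnh7* (0.017) and *Kcnk1* (0.36) in apical maturation. At a detection limit of 20 CPM, 29, 25, 17 and 13 genes were detected in mature apical, mature basal, immature apical and immature basal cells, 4 each in sustentacular-like, basal epithelial-like and non-sensory epithelial-like cells and 2 in endothelial-like cells. Counts of all genes at that limit are not given here. The 8 genes of mural-like cells became 30 with the mitochondrial limit and 1 to 8 in single libraries. No mural-like group was found at resolution 0.5, which gives no value there.

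Without thinning the shares of cells were 63.0% and 56.0% for *Kcnma1*, 88.2% and 96.3% for *Scn9a* and 64.9% and 33.9% for *Kcnk3* in mature apical and basal cells, 13.8% for *Kcnk12* in mature basal cells, 13.5% for *Kcnj5* in immature apical cells, 96.5% and 48.8% for *Kcnk1* in sustentacular-like and basal epithelial-like cells (27.9% in the latter with the mitochondrial limit), 1.67% for *Kcnj8* in endothelial-like cells and 91.9% for *Scn7a* in ensheathing-like cells.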

Other observations

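Channel genes also marked groups outside the comparisons. Ensheathing-like cells (74 cells), the glia of the olfactory and vomeronasal nerves, had *Scn7a*, an atypical sodium channel of glia, at 854 and 866 CPM in libraries 1 and 2, and the next group, fibroblast-like cells, had 24.0 CPM over both libraries. *Scn7a* was seen in 78.3% of the 60 cells thinned to 3000 UMIs (exact binomial 95% interval 65.8 to 87.9%), against 0.277% of macrophage-like cells. *Kcna2* was at 609 and 498 CPM, *Kcna1* at 300 and 424 CPM and *Kcna6* at 203 and 218 CPM in the same cells. The glial inward rectifier *Kcnj10* was at 83.1 and 122 CPM and its partner *Kcnj16* at 18.5 and 33.2 CPM. The summed level of all channel genes was 2524 and 2625 CPM, in the range of the mature neurons.

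Fibroblast-like cells had the T-type channel *Cacna1g* at 46.6 and 52.6 CPM, with the next group at 2.76 CPM, and *Cacna2d3* at 28.5 and 32.7 CPM. *Kcne4* was at 18.1 and 21.0 CPM. Macrophage-like cells had the tandem-pore channel *Kcnk13*, THIK-1 of microglia, at 23.5 and 33.4 CPM and *Kcnj9* at 1.39 and 2.55 CPM (14 UMIs). *Kcnn4*, which sets the calcium driving force in blood cells and secretory epithelium, was at 22.4 and 22.1 CPM in macrophage-like, 43.5 and 40.9 CPM in dendritic-like, 44.1 and 34.2 CPM in T cell-like, 87.2 and 32.6 CPM in NK cell-like (20 UMIs) and 55.1 and 53.4 CPM in gland-like cells. Neutrophil-like cells had *Kcnj2* at 17.0 and 27.0 CPM, T cell-like cells *Kcnk7* at 36.4 and 30.4 CPM, B cell-like cells *Cacna1s* at 91.2 and 39.6 CPM (15 UMIs) and ciliated-like cells *Kcnrg* at 109 and 81.6 CPM. *Kcnk1* was at 148 and 156 CPM in T cell-like, 84.3 and 90.2 CPM in gland-like and 116 and 114 CPM in ciliated-like cells. None of these levels was tested between groups.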
